A study of Mus musculus with 6 samples.

Results

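Genes of the blood vessel wall and of the meninges were followed in RNA sequencing libraries from cultured mouse hippocampal neurons. The set holds 40 genes chosen by symbol from the 37411 rows of the deposited gene count table, and all 40 have a row. It divides into 14 endothelial genes, 9 listed as mural (pericyte and smooth muscle), 16 fibroblast and meningeal genes, and Ttr for the choroid plexus.

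The cultures were made from hippocampi of newborn (P0) CD-1 IGS mice, an outbred stock, and were used on day 16 in vitro. There were 3 libraries treated with DMSO, the solvent (libraries 1, 2 and 3), and 3 treated with 50 µM forskolin (libraries 4, 5 and 6), each for 30 min. Forskolin activates adenylyl cyclase and so raises cyclic AMP, and the treatments are compared for transcripts that differ shortly after that rise. The labels do not say whether the libraries of a group came from separate cultures or pooled pups, so p-values measure only the spread between these libraries, which may be technical.

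Vessels of the brain are lined by endothelial cells joined by tight junctions, which form the blood-brain barrier. Pericytes and smooth muscle cells, the mural cells, wrap them, and fibroblasts of the meninges and of larger vessels secrete collagens and small proteoglycans. The choroid plexus, which lies beside the hippocampus, makes cerebrospinal fluid. Level is given here as CPM, in which each count is scaled to a common library size with TMM factors.

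Total counts ranged from 28342764 to 47548379 per library. Neuron markers were present in every library: the summed level of 14 of them was 5220 to 6602 CPM in the DMSO libraries, against 3830 to 6154 CPM in the forskolin libraries. Astrocyte markers were also present, with 12 genes summing to 7501 to 8236 and 7384 to 9054 CPM. Mitochondrial ribosomal RNA took 14.0 to 23.7% of counts in the DMSO libraries and 26.9 to 33.3% in the forskolin libraries. Library 6 stood apart from libraries 4 and 5 in the fit across all genes. The quasi-likelihood test of edgeR covered 16233 genes, and a gene is called here where its p, adjusted by Benjamini-Hochberg, was under 0.05. It called 245 genes with all 6 libraries, 5698 without library 6, and 0 without any other library (1945 to 3216 at an unadjusted p under 0.05). Values without single libraries are given below where they change a call or a direction, or move a fold change widely.

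None of the 31 vascular, mural and meningeal genes with enough counts to be tested was called between forskolin and DMSO by edgeR on 6 libraries, against 1.51% of all tested genes. An unadjusted p under 0.05 was reached by 4 of 31, against 22.3% of all tested genes. DESeq2 called 3 of the 31 (10.9% of all tested genes): Ogn and Pecam1 higher, Egfl7 lower. Limma-voom with library quality weights called 7 (41.9%), adding Foxc1, Pdgfrl and Slco1a4 higher and Cspg5 lower. Without library 6 edgeR called 5 (33.6%): Ogn, Pecam1 and Slco1a4 higher, Cspg5 and Egfl7 lower. Removing each library's trend on GC content as well left the same 5 (32.1%), in an alternative chosen after seeing the data. None was called with RLE factors (0.844% of all tested genes), library size alone (2.01%), library size without mitochondrially encoded genes (0.234%), no low-count filter (0.795%), a mean of at least 1 CPM (1.69%) or the GC trend removed on 6 libraries (0%). The median log2 fold change of the 31 was 0.11, beside 0.02 over all tested genes. Libraries of the same treatment differed widely from each other in the fibroblast genes, as described below.

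The upstream sequences of 3 of these genes are shown because the values below turn on the first pair, and because the third holds the binding motif of the factor that cyclic AMP activates. Col1a2 and Col3a1 encode chains of the fibrillar collagens I and III and moved together across all 6 libraries, and Flt1, a receptor for VEGF, was the only one of the 27 genes with a promoter in the table to hold a full cyclic AMP response element (CRE) in the searched window. The sequences are the 250 bases before the RefSeq start (GRCm38.p6), 5′ to 3′ on the strand of the gene. Col1a2 is shown at chr6:4505368-4505617 (plus strand), Col3a1 at chr1:45311288-45311537 (plus strand) and Flt1 at chr5:147726012-147726261 (minus strand). Capitals mark a CCAAT box in Col1a2, a TATAAA match in Col3a1 and the CRE in Flt1.
Col1a2: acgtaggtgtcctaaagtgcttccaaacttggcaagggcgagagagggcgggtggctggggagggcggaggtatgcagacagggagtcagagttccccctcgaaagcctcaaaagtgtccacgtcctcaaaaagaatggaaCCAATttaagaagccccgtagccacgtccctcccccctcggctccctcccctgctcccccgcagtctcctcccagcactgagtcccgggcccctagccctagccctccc
Col3a1: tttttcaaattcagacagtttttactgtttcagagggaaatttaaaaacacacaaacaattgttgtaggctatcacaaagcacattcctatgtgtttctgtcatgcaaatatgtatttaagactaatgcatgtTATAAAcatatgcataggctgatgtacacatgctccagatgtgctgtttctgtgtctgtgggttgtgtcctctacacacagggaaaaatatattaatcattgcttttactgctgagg
Flt1: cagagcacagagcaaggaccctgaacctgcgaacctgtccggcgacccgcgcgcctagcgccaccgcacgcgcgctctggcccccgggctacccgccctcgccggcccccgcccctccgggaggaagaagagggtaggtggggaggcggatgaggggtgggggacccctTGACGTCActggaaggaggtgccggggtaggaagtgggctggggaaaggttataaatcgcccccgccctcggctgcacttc

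Both strands of the 250-base windows were searched for 4 motifs, in the 27 genes of the set that the promoter table holds. The full CRE, TGACGTCA, was found in 1 of 27 genes and in 1.55% of all 32851 promoter windows. Its half-site, TGACG, which the full CRE contains, was in 6 of 27 (Egfl7, Flt1, Foxc1, Foxd1, Igf2 and Kcnj8) and in 17.8% of all windows. TATAAA was in 5 of 27 and 12.4%, and CCAAT in 11 of 27 and 33.8%. Egfl7 and Igf2 are among the 4 genes with several RefSeq starts, where any window counted. These matches describe letters in a window and not bound sites.

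Of the 14 endothelial genes 7 were too scarce to test, among them defining markers of the cell type, while others that also mark it, Cdh5 and Kdr, were at clear levels. Cldn5, the claudin of blood-brain barrier tight junctions, had 0 counts in 5 libraries and 2 counts in library 4. A count of 0 allows up to 3 counts, which is 0.0637 to 0.0984 CPM at these depths and covers counting error only. Tie1, a receptor tyrosine kinase of endothelium, had 0 to 5 counts per library, and Esam, an adhesion molecule of endothelial junctions, had 1 to 10. Tek, the angiopoietin receptor, had 3 to 11 counts, Emcn, a sialomucin of vein and capillary endothelium, 2 to 11, and Ly6c1, a surface antigen of brain endothelium, 0 to 6. Abcb1a, the barrier's P-glycoprotein pump, had 45 counts in library 4 and 0 to 7 in each other library. These 7 genes did not reach the count filter and were not tested.

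The further endothelial genes listed for comparison ranged from undetected to clear levels. The transcription factor Sox17 had 0 counts in every library, and Erg and Sox18, of the same role, had 0 to 3 each. Icam2, an adhesion molecule, had 0 to 2. Other genes known from endothelium were detected in every library: Plvap, a protein of fenestral diaphragms, at 5.17 to 8.95 CPM, Ramp2, a partner of the adrenomedullin receptor, at 4.88 to 11.7 CPM, Cd34, a sialomucin, at 1.54 to 4.48 CPM, and Mfsd2a, a lipid transporter of the barrier, at 31.4 to 43.8 CPM. These 4 and the scarce genes were picked after their values were seen. Of these 32 further genes, 9 had no more than 10 counts in any library. The highest by mean CPM, with no correction for length, were Bsg, Slc16a1 and Tjp1, a cell surface glycoprotein, a monocarboxylate transporter and a junction scaffold that other brain cells also make. None of the 20 tested was called by edgeR on 6 libraries (5 had an unadjusted p under 0.05), and their median log2 fold change was 0.13.

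**Figure D1:**
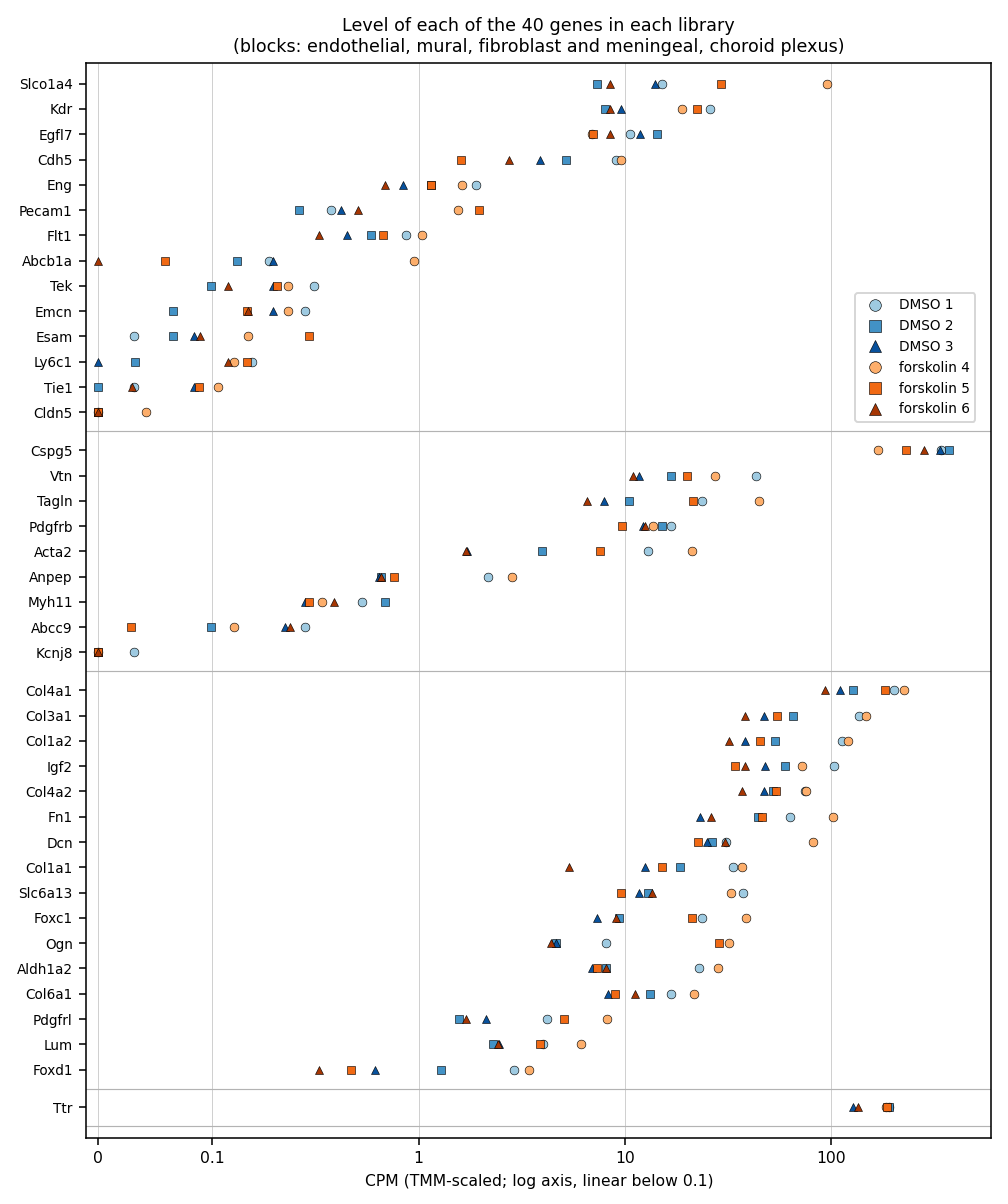
Level of the 40 genes in each of the 6 libraries, in CPM on a log axis that is linear below 0.1, with genes ordered by mean level within the endothelial, mural, fibroblast and meningeal, and choroid plexus blocks. Circles of both colours (libraries 1 and 4) lie to the right of the other libraries for most fibroblast genes, and Cldn5 and Kcnj8 sit at or near 0.

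Among the endothelial genes at clear levels, Slco1a4 had the widest range. It encodes an organic anion transporter of the blood-brain barrier and lies at chr6:141805440-141856199 (minus strand). Its levels were 15.3, 7.38 and 14.1 CPM in libraries 1, 2 and 3, and 95.8, 29.5 and 8.44 CPM in libraries 4, 5 and 6. Libraries 4 and 5 lay above every DMSO library and library 6 within their range, and library 4 held 11.3 times the level of library 6. The log2 fold change was 1.87 ± 0.80 (SE, n = 3 per group), with an edgeR adjusted p of 0.230. Without library 6 it was 2.34 (edgeR adjusted p = 0.0175), and without library 4 it was 0.63 (0.630); over all 15 alternatives the adjusted p ran from 0.0175 to 0.630. Slco1a4 has close relatives in the same gene cluster among which reads can be split, and of these Slco1a5 had 2.20 to 4.68 CPM in the DMSO libraries, against 9.19, 10.2 and 2.0 CPM in libraries 4, 5 and 6.

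Pecam1, an adhesion molecule of endothelium that leukocytes and platelets also carry, was at 0.374, 0.262 and 0.420 CPM in libraries 1, 2 and 3. It was at 1.55, 1.97 and 0.507 CPM in libraries 4, 5 and 6, from 73, 67 and 17 counts. All 3 forskolin libraries lay above the DMSO libraries, library 6 only narrowly. The log2 fold change was 1.92 ± 0.54 (SE; edgeR adjusted p = 0.132), and without library 6 it was 2.28 (0.00510), in a range of 0.00510 to 0.417 over 14 alternatives. DESeq2 gave an adjusted p of 0.0319 on the 6 libraries.

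Markers of microglia, the brain's resident macrophages, moved with Pecam1. Summed over 12 genes they came to 23.0 to 35.3 CPM in the DMSO libraries, against 227, 376 and 25.1 CPM in libraries 4, 5 and 6. All 11 tested microglia genes had a positive fold change, and none of the 12 was at 0 counts in all libraries. None was called by edgeR on 6 libraries (1.51% of all tested genes), and 10 of 11 had an unadjusted p under 0.05 (22.3%). The authors' deposited comparison lists the microglia genes Csf1r, Cx3cr1, C1qa, C1qb, C1qc and Tyrobp. The part of the microglia markers in the Pecam1 and Slco1a4 values was not tested.

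Egfl7, a secreted EGF-like protein of endothelium whose gene holds the microRNA Mir126a, was the endothelial gene that was lower in every forskolin library. It had 10.6, 14.4 and 11.8 CPM in libraries 1, 2 and 3, and 6.94, 6.99 and 8.47 CPM in libraries 4, 5 and 6. The groups did not overlap, and the spread within each was small (12.3 ± 1.90 and 7.47 ± 0.872 CPM, SD, n = 3). The log2 fold change was -0.72 ± 0.18 (SE; edgeR adjusted p = 0.112). DESeq2 called it (adjusted p = 0.0166) and so did edgeR without library 6 (0.0155), in a range of 0.00798 to 0.449 over 15 alternatives. The upper end is the fit with each library's trend on GC content removed, where the log2 fold change was -0.40. Egfl7 overlaps Agpat2 on the opposite strand, as Ogn does Cenpp and Tagln does Pcsk7 in the annotation, and since the strand setting is not known, reads of such overlapping genes cannot be told apart.

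Over all tested genes, the forskolin libraries all lay above the DMSO libraries in 10.2% and all below in 16.2%. Of the 31 tested genes of the set, Pecam1 lay above, and Egfl7 and Cspg5 lay below; the other 28 overlapped. Neither share exceeded that background.

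Kdr and Flt1 are the receptors through which endothelial cells respond to VEGF. Kdr had 26.0, 8.07 and 9.61 CPM in the DMSO libraries, against 19.0, 22.3 and 8.47 CPM in libraries 4, 5 and 6. Library 1 was thus the highest of all, above both raised forskolin libraries, and the fold change stayed within its error (log2 0.19 ± 0.53 SE, edgeR adjusted p = 0.854). Flt1, with the CRE shown above, was lower, at 0.448 to 0.874 CPM in the DMSO libraries, against 0.328 to 1.04 CPM in the forskolin libraries (log2 fold change 0.11 ± 0.48 SE, edgeR adjusted p = 0.907, and -0.34 without library 4).

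Cdh5, the VE-cadherin of endothelial junctions, had 9.08, 5.18 and 3.87 CPM in the DMSO libraries, against 9.59, 1.61 and 2.75 CPM in libraries 4, 5 and 6. Its level in library 5 was the lowest of all 6, unlike that of Slco1a4, Pecam1 and Kdr, and its log2 fold change was -0.37 ± 0.67 (SE; edgeR adjusted p = 0.766). Eng, a co-receptor for TGF-beta, had 0.841 to 1.90 CPM in the DMSO libraries, against 0.686 to 1.63 CPM in the forskolin libraries, and its log2 fold change of -0.16 was 0.24 without library 1. Of the 7 tested endothelial genes 3 were highest in library 4, 2 in library 1, and Egfl7 and Pecam1 in libraries 2 and 5. In 4 of the 7 (57.1%, against 18.5% of all tested genes) library 1 was the highest of the DMSO libraries and library 4 the highest of the forskolin libraries. The median ratio of library 1 to library 3 was 1.95, and that of library 4 to library 6 was 3.05.

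The genes listed as mural split in the same manner. Kcnj8 and Abcc9, the pore and the regulatory subunit of the ATP-sensitive potassium channel that marks brain pericytes, were scarce: Kcnj8 had 1 count over all libraries and Abcc9 had 1 to 9 per library. Myh11, the myosin heavy chain of differentiated smooth muscle, had 10 to 21 counts per library. Pdgfrb, the PDGF receptor that pericytes need, was present at 12.2 to 16.7 CPM in the DMSO libraries, against 9.66 to 13.7 CPM in the forskolin libraries, with a log2 fold change of -0.30 ± 0.20 (SE; edgeR adjusted p = 0.397) that ran from -0.42 to -0.13 leaving out each library. Fibroblasts express Pdgfrb too.

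Acta2 and Tagln encode smooth muscle actin and the actin-binding protein SM22, which contractile fibroblasts also make. Acta2 had 12.9, 3.97 and 1.71 CPM in libraries 1, 2 and 3, and 21.2, 7.6 and 1.70 CPM in libraries 4, 5 and 6. Tagln had 23.6, 10.5 and 7.93 CPM, then 44.8, 21.4 and 6.56 CPM. In both genes library 4 was the highest and library 1 the second highest, while library 6 was the lowest. Within a treatment Acta2 differed by 7.56 times among DMSO libraries and by 12.5 times among forskolin libraries, so that its log2 fold change of 0.72 ± 0.98 (SE; edgeR adjusted p = 0.687) was less than its error. The sign of both fold changes turned without library 4, to -0.41 for Acta2 and -0.0026 for Tagln.

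Vtn, the secreted glycoprotein vitronectin that brain pericytes make, had 43.5, 16.8 and 11.7 CPM in the DMSO libraries, against 27.4, 20.1 and 10.9 CPM in libraries 4, 5 and 6, highest in library 1. Anpep, the aminopeptidase CD13 of pericytes and fibroblasts, had 2.18, 0.656 and 0.645 CPM, then 2.84, 0.763 and 0.656 CPM, again with libraries 1 and 4 above the others.

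Cspg5 had the highest level in the mural group, by CPM and per kilobase, and it did not follow the rest. It encodes neuroglycan C, a chondroitin sulphate proteoglycan of neurons and glia; the proteoglycan by which pericytes are known, NG2, is the product of Cspg4. The levels of Cspg5 were 342, 375 and 339 CPM in libraries 1, 2 and 3, and 169, 232 and 282 CPM in libraries 4, 5 and 6. All forskolin libraries lay below the DMSO libraries, with means of 352 ± 20.3 and 228 ± 56.9 CPM (SD, n = 3). The log2 fold change was -0.63 ± 0.20 (SE; edgeR adjusted p = 0.154), and without library 6 it was -0.83 (0.0104), in a range of 0.00822 to 0.455 over 15 alternatives. DESeq2 did not call it on 6 libraries (adjusted p = 0.0567).

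The sum of the neuron markers was lower in libraries 4 and 5 than in any DMSO library, and not in library 6. The summed levels were 5220, 6205 and 6602 CPM in libraries 1, 2 and 3, and 3830, 4102 and 6154 CPM in libraries 4, 5 and 6, and in 7 of 14 the forskolin libraries all lay below the DMSO libraries, against 16.2% of all tested genes. None of the 14 was at 0 counts. EdgeR called 1 lower, Rbfox3, the nuclear protein NeuN, at 69.1, 84.4 and 80.1 CPM, then 37.8, 42.8 and 47.1 CPM, a log2 difference of -0.87 with an edgeR adjusted p of 0.0392. The neuron markers' part in the Cspg5 value was not tested. Cspg4 itself, which precursors of oligodendrocytes also express, had 98.9 to 109 CPM in the DMSO libraries, against 55.1, 81.0 and 62.6 CPM in libraries 4, 5 and 6, and its log2 fold change was -0.66 (edgeR adjusted p = 0.10). Cspg5 made up most of the sum over the mural genes. With it the sum was 374 to 441 CPM in the DMSO and 279 to 316 CPM in the forskolin libraries. Without it the sums overlapped, at 34.8 to 99.8 and 33.1 to 110 CPM. The median log2 fold change of the 7 tested mural genes was -0.30, and that of the 6 without Cspg5 was 0.01.

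Of 24 further mural genes 21 were tested, and edgeR called none on 6 libraries (3 at an unadjusted p-value under 0.05). Their median log2 fold change was 0.15. The highest by mean CPM were Tpm1, a tropomyosin, at 149 to 157 CPM in the DMSO libraries, against 119 to 150 CPM in the forskolin libraries, then Cspg4, and Cald1, the actin-binding protein caldesmon. Cald1 had 40.2, 32.3 and 36.5 CPM, then 73.7, 75.3 and 26.7 CPM, raised in libraries 4 and 5 and not in library 6.

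All 16 fibroblast and meningeal genes were detected and tested, and the differences among libraries of 1 treatment seen in part of the endothelial genes ran through all of them. In all 16, library 1 was the highest of the DMSO libraries and library 4 the highest of the forskolin libraries, which held for 5 of 7 tested mural genes (71.4%), 4 of 7 endothelial genes and 18.5% of all tested genes. Their summed levels were 881, 502 and 396 CPM in libraries 1, 2 and 3, and 1036, 541 and 353 CPM in libraries 4, 5 and 6. The level in library 1 exceeded that in library 3 by 1.23 to 4.71 times over the 16 genes (median 2.42, beside 0.99 over all tested genes). Library 4 exceeded library 6 by 1.89 to 10.4 times (median 3.63, beside 1.03). The biological coefficient of variation that edgeR estimated had a median of 0.491 over these genes and 0.234 over all tested genes. In such bulk libraries fewer cells of a type and less RNA per cell cannot be told apart.

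Fibroblast genes and microglia markers differed in the order of libraries 4 and 5. In both sums library 1 was the highest DMSO library and library 6 the lowest forskolin library. Library 1 was the highest DMSO library in 8 of 11 tested microglia genes (72.7%, against 35.8% of all tested genes). Of the 16 fibroblast genes 14 were highest of all in library 4 and 2 in library 1, whereas 10 of 11 tested microglia genes were highest in library 5 and 1 in library 4. In library 1, where fibroblast genes were high, the microglia sum was 35.3 CPM, beside 227 and 376 CPM in libraries 4 and 5.

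**Figure D2:**
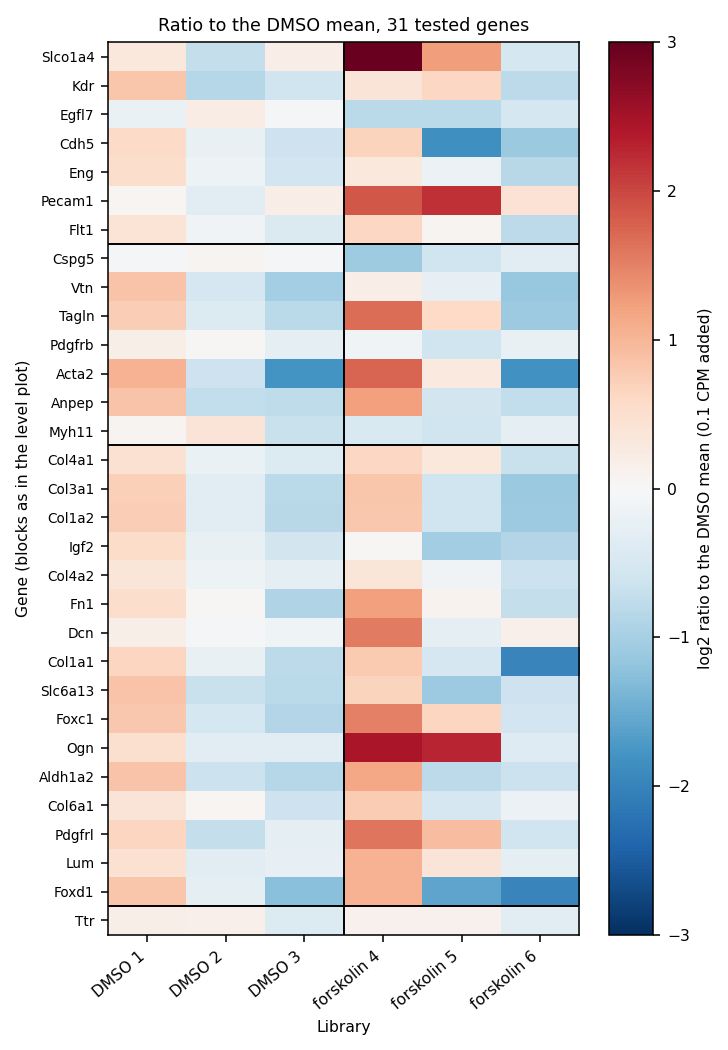
Log2 ratio of each of the 31 tested genes to its mean in the DMSO libraries, with 0.1 CPM added, by library (columns) and gene (rows), in blocks of endothelial, mural, fibroblast and meningeal, and choroid plexus genes. The columns of libraries 1 and 4 are red through nearly all of the fibroblast block, and libraries 3 and 6 are mostly blue there; the Cspg5 and Egfl7 rows are blue in the 3 forskolin libraries.

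Col4a1, Col3a1 and Col1a2 had the highest levels of the fibroblast genes, by mean CPM and per kilobase. Collagen I is built from the products of Col1a1 and Col1a2, and collagen III from Col3a1. Col1a2 had 114, 53.8 and 38.2 CPM in libraries 1, 2 and 3, and 121, 45.2 and 32.1 CPM in libraries 4, 5 and 6. Col3a1 had 137, 65.2 and 47.4 CPM, then 148, 55.0 and 38.3 CPM. Each of these genes varied by 3.75 and 3.87 times across the 6 libraries, yet the ratio of Col1a2 to Col3a1 counts lay between 0.807 and 0.839 in every library. This pair was singled out after its values were seen. Their log2 fold changes were -0.06 ± 0.58 and -0.04 ± 0.58 (SE; edgeR adjusted p = 0.964 and 0.971).

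Col1a1 did not keep step as closely. It had 33.4, 18.6 and 12.5 CPM in the DMSO libraries, against 37.3, 15.2 and 5.34 CPM in libraries 4, 5 and 6, so that Col1a2 held 2.90 to 3.41 counts for each count of Col1a1 in libraries 1 to 5 and 6.02 in library 6. Its log2 fold change was -0.15 ± 0.68 (SE; edgeR adjusted p = 0.910).

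Col4a1 and Col4a2 encode the chains of basement membrane collagen IV, which endothelial cells, pericytes and fibroblasts all deposit. They lie head to head, Col4a1 at chr8:11198423-11312826 (minus strand) and Col4a2 at chr8:11312805-11449287 (plus strand), with overlapping annotated starts. Col4a1 had 204, 128 and 110 CPM in libraries 1, 2 and 3, and 226, 182 and 93.3 CPM in libraries 4, 5 and 6. Col4a2 had 74.9, 52.4 and 47.5 CPM, then 75.5, 54.4 and 37.2 CPM. Both were highest in libraries 1 and 4, but the counts of Col4a1 were 2.32 to 2.72 times those of Col4a2 in the DMSO libraries and 3.0, 3.35 and 2.51 times in libraries 4, 5 and 6. Their log2 fold changes were 0.19 ± 0.36 and -0.06 ± 0.29 (SE; edgeR adjusted p = 0.785 and 0.912), and removing the GC trend moved that of Col4a2 to 0.45.

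Col6a1, a chain of the microfibrillar collagen VI, had 16.7, 13.2 and 8.32 CPM in the DMSO libraries, against 21.7, 8.95 and 11.2 CPM in libraries 4, 5 and 6. Fn1, the matrix glycoprotein fibronectin, had 63.3, 44.3 and 23.1 CPM, then 102, 46.6 and 26.4 CPM. Both repeated the high values of libraries 1 and 4, and neither fold change exceeded its error (0.13 ± 0.39 and 0.43 ± 0.54, SE).

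Small leucine-rich proteoglycans bind collagen fibrils, and 3 of them are in the set: Dcn (decorin), Lum (lumican) and Ogn (osteoglycin). Dcn had 30.9, 26.7 and 25.2 CPM in the DMSO libraries, against 81.6, 22.7 and 30.7 CPM in libraries 4, 5 and 6. Its DMSO libraries were within 1.23 times of each other, the narrowest range of the 16 genes, and library 4 alone was raised. The log2 fold change of 0.71 ± 0.45 (SE; edgeR adjusted p = 0.384) fell to -0.05 without library 4 and to 0.13 with the GC trend removed. Lum had 2.30 to 4.03 CPM in the DMSO libraries, against 2.42 to 6.11 CPM in the forskolin libraries, with a log2 fold change of 0.50 that was 0.10 without library 4.

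Ogn and Pdgfrl were the fibroblast genes of the set that lay above every DMSO library in library 5 as well as in library 4. Ogn lies at chr13:49608046-49624501 (plus strand) and had 8.11, 4.66 and 4.65 CPM in libraries 1, 2 and 3, and 32.1, 28.6 and 4.42 CPM in libraries 4, 5 and 6. Libraries 4 and 5 were nearly equal and far above the DMSO libraries, and library 6 was below them all. Ogn held 0.0713 to 0.122 counts for each count of Col1a2 in the DMSO libraries, 0.266 in library 4, 0.632 in library 5 and 0.137 in library 6. Its log2 fold change was 1.90 ± 0.68 (SE; edgeR adjusted p = 0.180). Without library 6 it was 2.37 (edgeR adjusted p = 0.00341), and DESeq2 on 6 libraries gave 0.0231, in a range of 0.00341 to 0.487 over 15 alternatives. The upper end is again the fit with the GC trend removed, where the log2 fold change was 1.11; Ogn has 36.3% GC in its longest annotated transcript.

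Meningeal regulators and transporters followed the collagens. Foxc1, a transcription factor needed to form the meninges, had 23.8, 9.38 and 7.32 CPM in the DMSO libraries, against 38.9, 21.3 and 9.10 CPM in libraries 4, 5 and 6. Aldh1a2, which makes retinoic acid in the meninges, had 23.0, 8.10 and 6.95 CPM, then 28.4, 7.34 and 8.09 CPM. Slc6a13, a GABA transporter of meningeal cells, had 37.5, 12.9 and 11.8 CPM, then 32.9, 9.63 and 13.5 CPM. In Aldh1a2 and Slc6a13 libraries 1 and 4 stood 2.4 or more times above each of the other 4 libraries, and Foxc1 was raised in library 5 as well. The log2 fold change of Foxc1 was 0.78 ± 0.62 (SE; edgeR adjusted p = 0.476), and it was 1.48 without library 1 and 0.17 without library 4.

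Foxd1, a transcription factor of stromal precursors, was scarce, at 0.617 to 2.90 CPM in the DMSO libraries, against 0.328 to 3.42 CPM in the forskolin libraries. Pdgfrl, a secreted relative of the PDGF receptors, had 4.21, 1.57 and 2.13 CPM, then 8.21, 5.08 and 1.70 CPM. Without library 4 the log2 fold change of Foxd1 went from -0.16 to -1.99 and that of Pdgfrl from 0.92 to 0.36. Igf2, the growth factor IGF-II that meninges and choroid plexus secrete, had 104, 59.9 and 47.7 CPM in the DMSO libraries, against 72.7, 34.1 and 38.4 CPM in libraries 4, 5 and 6. It was 1 of 2 fibroblast genes, with Slc6a13, whose highest value was in library 1, and its log2 fold change was -0.54 ± 0.38 (SE; edgeR adjusted p = 0.426), which was -0.14 without library 1 and -0.96 without library 4.

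**Figure D3:**
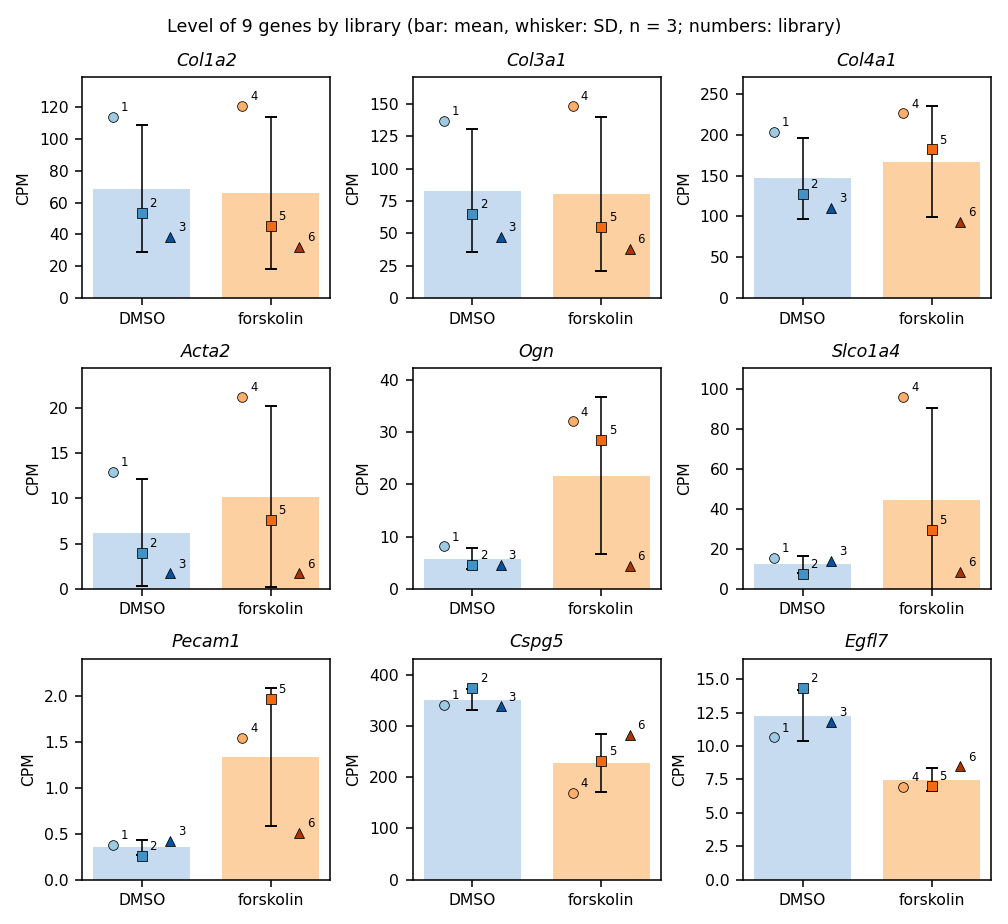
CPM of 9 genes in each library (numbered points), with bars for the group mean and whiskers for the SD (n = 3; whiskers that would pass below 0 stop at the axis). Col1a2 and Col3a1 repeat the same profile within each treatment, Ogn and Slco1a4 are raised in libraries 4 and 5, and Cspg5 and Egfl7 are lower in all 3 forskolin libraries.

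The median log2 fold change of the 16 fibroblast genes was 0.16, with 9 positive and 7 negative. Its sign turned without library 4 (-0.34, 12 of 16 negative) and without library 3 (-0.11, 9 of 16 negative). Without library 1 it was 0.60, with 15 of 16 positive. The 7 tested endothelial genes had a median of 0.11, which was 0.42 without library 1 and turned to -0.34 without library 4, -0.11 without library 3 and -0.10 without library 2. For the 7 mural genes the median of -0.30 became 0.46 without library 1 and -0.45 without library 4.

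**Figure D4:**
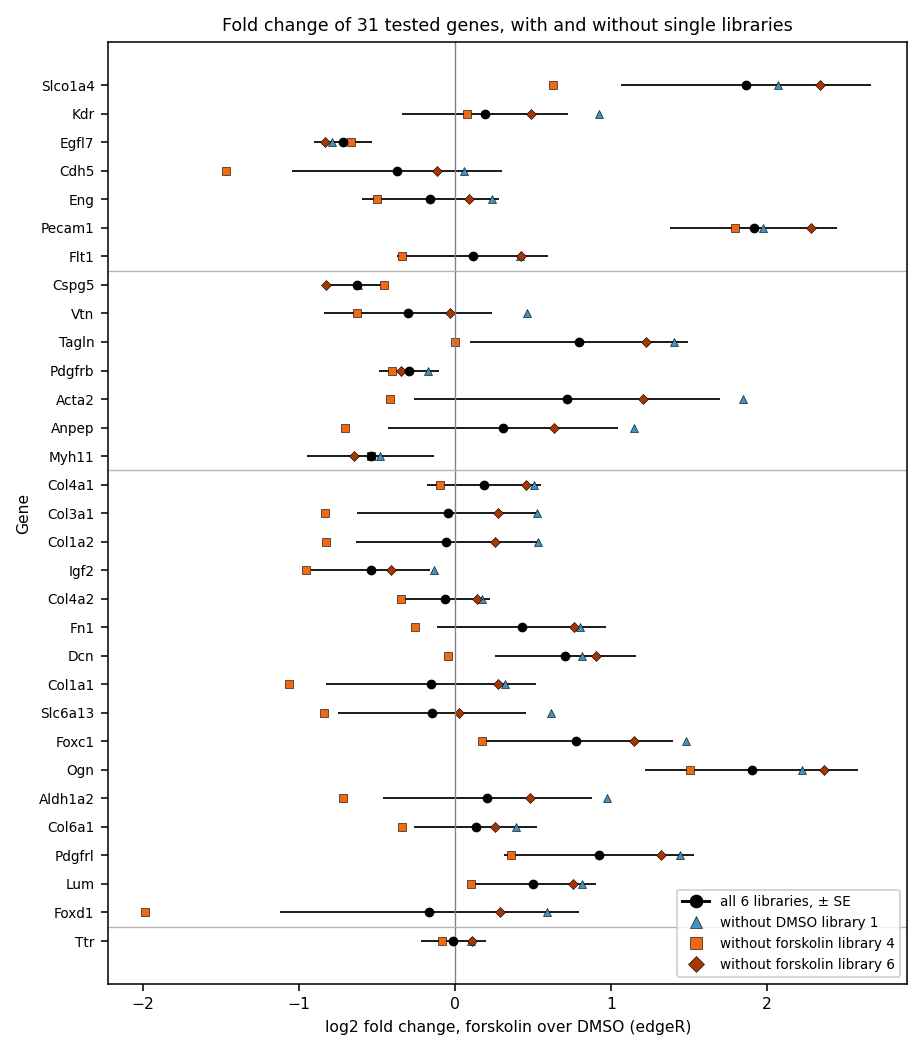
Log2 fold change of forskolin over DMSO for the 31 tested genes with all 6 libraries (black, ± SE) and without library 1, 4 or 6 (coloured). The values without library 4 lie to the left of the others for most fibroblast genes, while those of Egfl7, Cspg5 and Pecam1 stay on the same side of 0 in all 4 fits.

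A longer list of 55 further fibroblast and matrix genes in the table repeated the library pattern. Of 54 tested, 50 (92.6%) were highest among DMSO libraries in library 1, against 35.8% of all tested genes, and 40 (74.1%) were also highest among forskolin libraries in library 4, against 18.5%. Library 1 was also the highest DMSO library in 83.3% of astrocyte, 83.3% of further choroid plexus and 72.7% of microglia genes. The share was 50% for oligodendrocyte and 7.14% for neuron genes. With library 4 as well, the shares were 25% for astrocyte, 38.9% for choroid plexus and 9.09% for microglia genes. EdgeR called none of the 54 on 6 libraries (6 had an unadjusted p under 0.05), and their median log2 fold change was 0.23. The highest by mean CPM were Vim, the intermediate filament vimentin, which astrocytes also make, Sparc, a matrix-binding glycoprotein, and Pdgfra, a PDGF receptor of fibroblasts and oligodendrocyte precursors. Vim had 754, 505 and 474 CPM in libraries 1, 2 and 3, and 1394, 1282 and 302 CPM in libraries 4, 5 and 6. Sparc had 727, 392 and 383 CPM, then 1182, 886 and 296 CPM. Pdgfra did not share the pattern, at 281, 243 and 286 CPM, then 160, 242 and 301 CPM, lowest in library 4 and highest in library 6. Vim and Sparc were raised in library 5 as well, unlike Col1a2 and Col3a1.

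The ligands and partner receptors of these cells went both ways. Of 30 such genes with a row, 29 were tested. Their summed levels were nearly level, at 1112 to 1120 CPM in the DMSO libraries, against 1010 to 1106 CPM in the forskolin libraries. Their median log2 fold change was -0.0046, with 14 positive and 15 negative, from -0.77 to 2.17. Library 1 was the highest DMSO library and library 4 the highest forskolin library in 8 of 29 (27.6%, against 18.5% of all tested genes). In 1 gene the forskolin libraries all lay above the DMSO libraries and in 7 all below (10.2% and 16.2% of all tested genes). EdgeR called none on 6 libraries (8 had an unadjusted p under 0.05). The highest by mean CPM were Nrp1 and Nrp2, co-receptors for VEGF and semaphorins, and Igf2r, which clears IGF-II. Nrp1 had 163 to 204 CPM in the DMSO libraries, against 174 to 206 CPM in the forskolin libraries, and Igf2r had 138 to 141 and 133 to 147 CPM.

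Ttr, which encodes the thyroxine carrier transthyretin, is made in the brain by the choroid plexus. It had 192, 191 and 128 CPM in libraries 1, 2 and 3, and 185, 187 and 135 CPM in libraries 4, 5 and 6. The groups overlapped almost completely, with a log2 fold change of -0.01 ± 0.21 (SE; edgeR adjusted p = 0.981). Libraries 3 and 6, the lowest in Ttr, were also the lowest in the fibroblast sum, while libraries 1, 2, 4 and 5 all lay between 185 and 192 CPM. Of 20 further choroid plexus genes 18 were tested, edgeR called none on 6 libraries (0 at an unadjusted p-value under 0.05), and their median log2 fold change was 0.47. The highest by mean CPM was Enpp2, the lysophospholipase autotaxin, which oligodendrocytes also make, at 73.6, 36.1 and 34.6 CPM, then 124, 61.7 and 41.4 CPM. Calml4, a calmodulin-like protein, and Col8a2, a chain of collagen VIII, came next.

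Levels can be compared between genes only per length of transcript. Per kilobase of the longest annotated transcript, Ttr had a mean level over the 6 libraries of 143 CPM and Cspg5 36.8. The highest fibroblast genes were Col4a1 (23.8 CPM per kilobase), Col3a1 (14.7), Col1a2 (12.6) and Igf2 (12.6). The highest mural genes after Cspg5 were Vtn (12.5) and Tagln (12), and the highest endothelial genes were Slco1a4 (7.43) and Egfl7 (5.29). Pecam1 reached 0.246 and Cldn5 0.0050.

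The authors' deposited table of their own comparison lists 132 genes, and none of the 40 is among them.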

How the data were processed

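The authors deposited whole-number counts per gene for the 6 libraries, here taken as raw counts; the submitters' processing notes name Salmon, DESeq and GRCm38 with no role, so the counts may be rounded estimates. The aligner settings, annotation and strand setting are not given in the sources used here. A second table of the authors' deposited results holds a signal (the normalised count averaged over libraries), log2 fold changes, a test score and p-values, per the file headers; it was used for membership only.

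The fits ran in R 4.3.3 with DESeq2 1.42.0, limma 3.58.1 and edgeR 4.0.16. Genes passing filterByExpr (minimum count 10, minimum total 15; 16233 genes) were fitted with glmQLFit and glmQLFTest with TMM scaling and the group as the only term. The Benjamini-Hochberg adjustment covered every tested gene, and the threshold was 0.05. Standard errors were derived from the fold change and its F statistic. The fits were tested on simulated data with a smaller spread than most genes of this set had, and with no library standing apart. How they perform at the spread seen here was not tested. Library patterns were counted on tested genes.

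All 40 genes matched GENCODE M21 (GRCm38) by symbol, which gave coordinates, length and GC content (97.1% of tested genes have a GC value). Promoter sequences are RefSeq's (GRCm38.p6). Genes with a mean of at least 5 CPM, or called by edgeR or DESeq2 on 6 libraries or by edgeR without 1 library, were named with every value; of the further vascular, mural, fibroblast, choroid plexus and ligand lists, the 3 genes of highest mean CPM and any called one. Lists of other cell types are given by sums and counts. The genes and lists were chosen with earlier results of these data known. Cspg4 and Pdgfra, 2 genes of the further mural and fibroblast lists, are also in the oligodendrocyte list, whose 12 genes summed to 946 to 1024 CPM in the DMSO libraries and 766 to 1659 CPM in the forskolin libraries, with none called by edgeR on 6 libraries and 8 at an unadjusted p-value under 0.05. Alternatives were DESeq2, limma-voom with quality weights, other scalings and filters, removal of each library's GC trend and leaving out each library.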

Additional observations from a re-analysis of the deposited data

How the results depend on the processing

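The 9 genes under the count filter were tested only without that filter, where edgeR called 0 of the 40, against 0.795% of all genes in that fit. An unadjusted p under 0.05 was reached there by 5 of the 40, against 16.7% of all genes. No paired analysis was possible because the labels number the libraries 1 to 6 across both groups. The 245 genes called became 1765 with DESeq2, 6794 with limma-voom and quality weights, 137 with RLE factors, 38 with library size without mitochondrially encoded genes, 0 with the GC trend removed (1947 at an unadjusted p-value under 0.05), 0 to 5698 leaving out each library (5698 without library 6, 0 without each other) and 5432 with the GC trend removed and library 6 left out, an alternative chosen after seeing the data. The 0 genes of the set called became 3, 7, 0 to 5 (5 without library 6) and 5 with DESeq2, quality weights, single libraries left out, and the last alternative. Scaling by library size alone, no low-count filter and a mean CPM of at least 1 kept both counts within 1.5 times. The median of the mural genes ranged from -0.45 to 0.46 leaving out each library. It also turned to 0.24 with quality weights, 0.024 with a mean CPM of at least 1 (6 genes) and 0.16 with the last alternative. The median of the endothelial genes turned to -0.14 with a mean CPM of at least 1 (5 genes) and -0.0066 with library size alone. It was 0.53 with no low-count filter (14 genes). The median of all tested genes, 0.02, was -0.09 with library size alone and 0.13 with library size without mitochondrially encoded genes. The cause of these shifts was not tested.

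Of the 24 named genes, 8 kept the sign of their log2 fold change in every alternative run and 16 did not. Leaving out each library gave -0.10 to 0.92 for Kdr, -1.47 to 0.065 for Cdh5, -0.64 to 0.46 for Vtn, -0.41 to 1.84 for Acta2, -0.0026 to 1.41 for Tagln, -1.07 to 0.32 for Col1a1, -0.83 to 0.53 for Col1a2, -0.83 to 0.53 for Col3a1, -0.10 to 0.51 for Col4a1, -0.35 to 0.17 for Col4a2, -0.34 to 0.40 for Col6a1, -0.047 to 1.06 for Dcn, -0.26 to 0.80 for Fn1, -0.84 to 0.62 for Slc6a13, -0.72 to 0.97 for Aldh1a2 and -0.19 to 0.11 for Ttr. Quality weights turned Vtn to 0.24, Col1a1 to 0.18, Col1a2 to 0.19, Col3a1 to 0.19, Col4a2 to 0.14, Slc6a13 to 0.081 and Ttr to 0.084. Removing the GC trend turned Col1a1 to 0.21, Col1a2 to 0.16, Col3a1 to 0.065, Col4a2 to 0.45 and Slc6a13 to 0.037; with library 6 also left out Vtn was 0.16, Col1a1 0.61, Col1a2 0.46, Col3a1 0.38, Col4a2 0.57, Slc6a13 0.19 and Ttr 0.015. Library size without mitochondrially encoded genes turned Col1a2 to 0.055, Col3a1 to 0.066, Col4a2 to 0.047 and Ttr to 0.10. Ttr was 0.0015 with DESeq2, 0.0015 with RLE factors and 0.0092 with a mean CPM of at least 1.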

Other observations

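Abcb1b, the second P-glycoprotein gene of the mouse, is a close copy of Abcb1a, and reads of the pair can be split between them. It had 2.93, 2.72 and 2.86 CPM in libraries 1, 2 and 3, and 6.03, 6.64 and 3.61 CPM in libraries 4, 5 and 6, above Abcb1a in every library. Slco1a6 and Slco1a1, neighbours of Slco1a4, had no more than 0.340 and 0.297 CPM in any library. Actg2 and Actc1, which resemble Acta2, had no more than 0.191 and 0.0561 CPM in any library, and Ly6c2, the close copy of Ly6c1, had 0 counts in every library.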
